A study of Mus musculus with 27 samples.

Results

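The genes described here are 8 members of the CXC and CX3C chemokine system: the ligands Cxcl1, Cxcl2, Cxcl10, Cxcl12, Cxcl14, Cxcl16 and Cx3cl1, and the receptor Cxcr4. They were chosen by symbol, as 8 of the 22340 rows of a count table of cortical RNA, and all 8 passed the filter on low counts. The cortex came from C57BL6 mice aged 7 to 8 weeks, raised as wildtype animals. In the stroke groups a nylon suture blocked the right middle cerebral artery for 35 min while the common carotid artery was tied, and tissue was taken after 3, 6, 12 or 24 h of reperfusion from the ipsilateral (occluded) or the contralateral hemisphere. The sham group had anaesthesia and exposure of the arteries with no filament. With 3 libraries in each of 9 groups there were 27 libraries, and each replicate number stands for a day of surgery. Whether the hemispheres at a time are from the same animals, and the side and time of the sham tissue, are not stated in the labels.

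Chemokines are small secreted proteins that bind G protein-coupled receptors and draw cells along a gradient, and the CXC and CX3C names describe the spacing of the first cysteines. Cxcl1 and Cxcl2 act on Cxcr2 and draw neutrophils, while Cxcl10 acts on Cxcr3 and draws T cells and natural killer cells. Cxcl12 acts on Cxcr4 and is scavenged by Ackr3. Cx3cl1 (fractalkine) and Cxcl16 are made as membrane-bound proteins that can be shed, and in the brain neuronal Cx3cl1 meets Cx3cr1 on microglia.

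Total counts ran from 26505996 to 48830897 per library. Levels are CPM, that is, counts relative to the library total, which was adjusted by the trimmed mean of M values (TMM). Even numbers made up 81.6% of all counts from 1 to 4, against 51.5% of counts from 101 to 1000, so a count here may hold both reads of a pair. Counting intervals below cover counting error only, and floors cover it only for the group with 0 counts, the other count being taken as exact. Both are too narrow where a count holds both reads. A pair of libraries, replicate 1 of the contralateral 3 h group and replicate 1 of the ipsilateral 24 h group, had stood apart on technical measures in earlier work on these data and are called the doubted libraries. Choroid plexus markers summed to 86.1 to 743 CPM in 5 libraries, all of replicate 1 (both sides at 6 h, ipsilateral at 3 h, contralateral at 12 and 24 h), and to at most 27.5 CPM in the others. Markers of excitatory cortical neurons were present in every group, with a summed level over 8 genes from 896 to 1692.1 CPM across the 27 libraries. A member was called changed at an adjusted p under 0.05 in edgeR's quasi-likelihood test with Benjamini-Hochberg adjustment over 18087 genes. In bulk cortex, fewer cells of a type and less RNA per cell cannot be told apart.

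Promoter sequence was at hand for 7 of the 8 members, from RefSeq on GRCm38.p6, and Cxcl16 had no entry. The 250 bases before the start site of Cxcl1, Cxcl2 and Cxcl10 are shown because these 3 ligands, which lie on the same chromosome, had the largest rises among the members at 24 h. They are written 5′ to 3′ on the strand of the gene, with capitals marking matches to the NF-kappaB consensus and, in Cxcl10 only, a match to GAAANNGAAA, the core of the interferon-stimulated response element. Their positions are chr5:90890995-90891244 on the plus strand for Cxcl1, chr5:90903649-90903898 on the plus strand for Cxcl2 and chr5:92348890-92349139 on the minus strand for Cxcl10. Start sites here are those of RefSeq, whereas the gene positions given below are from GENCODE. The GENCODE starts of Cxcl1 (90891241) and Cxcl2 (90903871) lie before the ends of these windows, so distances to the start would be shorter from them.
Cxcl1: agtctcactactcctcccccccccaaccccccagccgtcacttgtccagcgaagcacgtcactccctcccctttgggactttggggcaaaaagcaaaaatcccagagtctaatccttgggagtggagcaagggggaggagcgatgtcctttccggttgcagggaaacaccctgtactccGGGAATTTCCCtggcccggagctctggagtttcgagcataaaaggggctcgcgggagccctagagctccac
Cxcl2: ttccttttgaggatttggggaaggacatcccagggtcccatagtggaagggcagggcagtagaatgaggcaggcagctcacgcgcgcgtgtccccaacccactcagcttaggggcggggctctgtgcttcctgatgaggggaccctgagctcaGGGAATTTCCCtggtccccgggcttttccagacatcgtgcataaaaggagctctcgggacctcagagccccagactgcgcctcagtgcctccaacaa
Cxcl10: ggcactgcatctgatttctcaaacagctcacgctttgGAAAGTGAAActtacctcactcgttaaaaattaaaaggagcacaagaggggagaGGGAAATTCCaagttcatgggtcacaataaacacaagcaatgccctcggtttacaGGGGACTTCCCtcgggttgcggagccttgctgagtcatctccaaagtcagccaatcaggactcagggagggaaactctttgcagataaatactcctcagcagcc
The NF-kappaB match started 71 bases before the start site in Cxcl1 and 97 bases before it in Cxcl2, with the same letters in both. Cxcl10 held NF-kappaB matches that started 159 and 104 bases before its start, and the GAAANNGAAA match started 213 bases before it. Both motifs were searched on both strands, and matches that overlap are drawn as 1 run of capitals. The NF-kappaB consensus occurred in 7.25% and GAAANNGAAA in 2.98% of the same window in 32851 RefSeq promoters. Of the other members, Cxcl14 held GAAANNGAAA, 172 bases before its start, and Cxcl12, Cx3cl1 and Cxcr4 held neither motif in this window. For Cx3cl1 the window (chr8:94771930-94772179) runs past the GENCODE gene start at 94772009. Most of it thus lies within the gene as placed below, and little of the sequence upstream of that start was searched. A match describes letters and does not show that a factor binds.

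Between ipsilateral and contralateral cortex the members parted into those that rose, 1 that fell and 2 that were not called. At 3 h, 0 of 8 members were called, where 0.249% of all tested genes were. Without adjustment 2 members (Cxcl1 and Cxcl10) had p under 0.05 at 3 h, and DESeq2 called 1 (Cxcl10). At 6 h 3 members rose (Cxcl1, Cxcl16 and Cxcr4), against 7.99% of all genes called. At 12 h 3 rose (Cxcl1, Cxcl10 and Cxcl16) and Cx3cl1 fell, against 12.2% of genes. At 24 h 4 rose (Cxcl1, Cxcl2, Cxcl10 and Cxcl16) and Cx3cl1 fell, against 19.1% of genes. With both doubted libraries left out the counts were 0, 3, 5 and 6, Cxcl14 being added at 12 and 24 h. The median log2 fold change over the 8 members was 0.37, 1.37, 1.41 and 1.46 in order of time, where the median over all tested genes lay between -0.017 and 0.028.

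**Figure D1:**
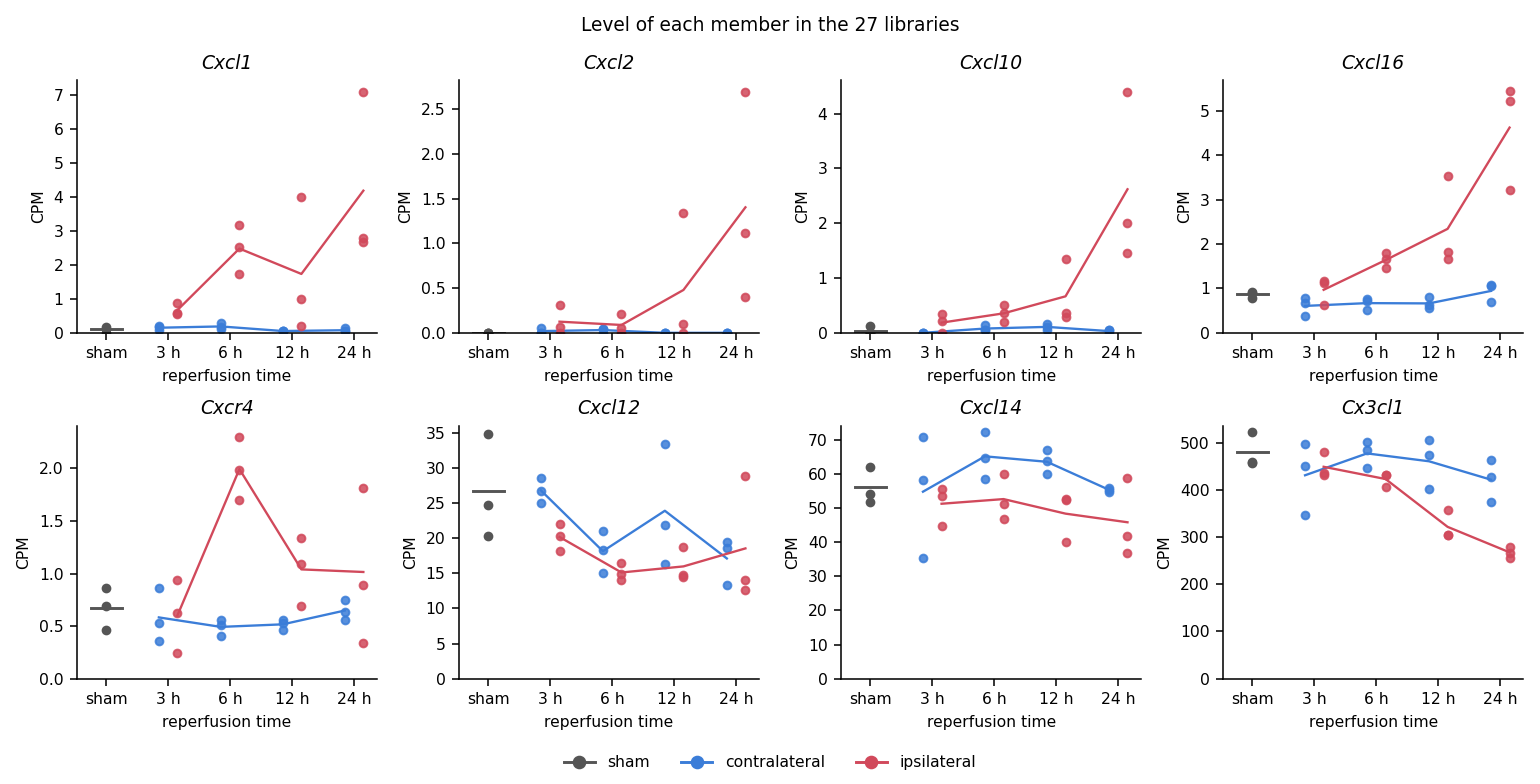
Level of each of the 8 members in CPM (y axis of each panel, linear and from 0) in sham cortex and in contralateral and ipsilateral cortex at 3, 6, 12 and 24 h of reperfusion (x axis). Each point is 1 library, lines join group means and the short bar is the sham mean. The 3 ipsilateral libraries at 24 h lie above all contralateral ones for Cxcl1, Cxcl2, Cxcl10 and Cxcl16 and below all of them for Cx3cl1, while Cxcr4 has its highest mean, 1.99 CPM, in ipsilateral cortex at 6 h.

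Against sham the order was much the same. At 3 h 0 of 8 members were called (0.243% of all genes were), with Cxcl1 and Cxcl10 the 2 members with an unadjusted p under 0.05 and 0 called by DESeq2. At 6 h Cxcl1 and Cxcr4 rose, 2 of 8 members against 6.11% of genes. At 12 h Cxcl1, Cxcl10 and Cxcl16 rose and Cx3cl1 fell, 4 of 8 against 10.3% of genes, and at 24 h Cxcl1, Cxcl2, Cxcl10 and Cxcl16 rose and Cx3cl1 fell, 5 of 8 against 22.2% of genes. Without the doubted libraries the counts were 0, 4, 5 and 7, with Cxcl10 and Cxcl12 added at 6 h, Cxcl12 at 12 h, and Cxcl12 and Cxcl14 at 24 h. The ipsilateral libraries are shared by both sets of comparisons, so these calls are not independent of those against the contralateral side.

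In contralateral cortex 0 of 8 members were called against sham at any time, by edgeR or by DESeq2. Of all tested genes 0.0111%, 0.0332%, 0.238% and 0.111% were called at 3, 6, 12 and 24 h. Without adjustment, p was under 0.05 for 1 member at 6 h and 1 at 24 h, Cxcl12 in both, and for 0 members at 3 and 12 h.

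Cxcl1 (mm10, chr5:90891241-90893115, plus strand), a neutrophil attractant, rose at 6, 12 and 24 h. Its counts were 8, 0 and 4 in the sham libraries, and between 2 and 12 in the 12 contralateral libraries. On the ipsilateral side they were 18, 30 and 28 at 3 h and 105, 122 and 82 at 6 h. They were 50, 8 and 173 at 12 h and 258, 96 and 140 at 24 h. Every ipsilateral library at 3, 6, 12 and 24 h had a higher CPM than every contralateral library of the same time, and replicate 2 at 12 h was the lowest ipsilateral library.

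The mean level of Cxcl1 at 3 h was 0.67 ± 0.173 CPM (SD, n = 3) ipsilaterally and 0.15 ± 0.0656 contralaterally, a log2 fold change of 2.06 ± 0.83 (SE) that was not called (adjusted p = 0.36, edgeR). At 6 h it was 2.49 ± 0.729 against 0.188 ± 0.089 CPM, a log2 fold change of 3.69 ± 0.75 (adjusted p = 0.00286). At 12 h it was 1.74 ± 2 against 0.0526 ± 0.00541 CPM (4.97 ± 0.92 on the log2 scale, adjusted p = 0.00097). The ipsilateral SD at 12 h thus exceeded the mean. At 24 h it was 4.19 ± 2.51 against 0.0765 ± 0.0555 CPM (log2 fold change 5.73 ± 0.84, adjusted p = 7.68e-05). Pooled over the 3 libraries, 494 ipsilateral and 10 contralateral counts at 24 h gave a ratio of 53.7 (exact 95% interval 29 to 113). Left out of the fit, replicate 3 at 12 h took the estimate there from 4.97 to 3.48 and replicate 1 at 24 h took that one from 5.73 to 5.12, and Cxcl1 was called in both cases.

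Ordered by mean level, ipsilateral cortex at 24 h came first for Cxcl1, followed by the ipsilateral groups at 6, 12 and 3 h. These 4 neighbours overlapped in their libraries. Between the ipsilateral group at 3 h and the next, contralateral cortex at 6 h, there was a gap with no overlap, and the sham and contralateral groups below it overlapped. The increase of the ipsilateral effect from 3 to 24 h was 3.67 ± 1.26 on the log2 scale and was not called (adjusted p = 0.0994).

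Cxcl2 (chr5:90903871-90905938, plus strand), which binds the same receptor, was close to absent outside the ipsilateral side. It had 0 counts in all 3 sham libraries and in all 6 contralateral libraries at 12 and 24 h, and at most 2 counts in any contralateral library at 3 and 6 h. On the ipsilateral side its counts were 0, 16 and 2 at 3 h and 0, 2 and 10 at 6 h. They were 0, 4 and 58 at 12 h and 98, 40 and 20 at 24 h. Only at 24 h did all 3 ipsilateral libraries lie above all contralateral ones.

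With 3 counts per group taken as the floor, ipsilateral Cxcl2 at 24 h stood 57.3-fold above the contralateral floor (adjusted p = 0.00993, edgeR). It stood 52.3-fold above the sham floor (adjusted p = 0.00996). At 12 h it stood 17.8-fold above the contralateral floor, with an adjusted p of 0.0633. The 12 h value rested on replicate 3, which held 58 of the 62 ipsilateral counts. The adjusted p there was 0.412 without replicate 3, 0.0291 without replicate 1 and 0.0449 without replicate 2. With a replicate block within each time it was 0.0351 and Cxcl2 was called. Of 2159 stretches of 50 bases in Cxcl2 transcripts, 126 also occur in transcripts of Cxcl3, a close relative, so part of the reads could belong to either. Cxcl3 itself had 32, 10 and 2 counts in the ipsilateral libraries at 24 h and was not tested because of low counts.

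Receptors and cells that respond to Cxcl1 and Cxcl2 were measured beside them. Cxcr2, the neutrophil receptor, had counts of 30, 20 and 4 in ipsilateral cortex at 24 h and 9, 2 and 2 contralaterally, a log2 fold change of 2.27 ± 0.93 that was not called (adjusted p = 0.0863). The libraries overlapped, and without ipsilateral replicate 3 the adjusted p was 0.0414. Against sham, which had 2, 0 and 0 counts, Cxcr2 rose at 24 h with no overlap (adjusted p = 0.00767, and at most 0.0442 over 13 alternatives), and pooled counts of 54 against 2 gave a ratio of 26.8 (exact 95% interval 7.08 to 227). Of 10 listed neutrophil markers 8 had a row and 6 were tested, and 1 rose at 24 h between the sides, where 19.1% of all genes were called (S100a9, a calcium-binding protein of granulocytes, with a log2 fold change of 2.74 and adjusted p = 0.0252). At 6 h 1 rose (Mpo) and 1 fell (Csf3r), beside 7.99% of all genes called, and against sham 3 of 6 rose at 24 h, beside 22.2%. The summed level of the 8 markers at 24 h was 18.1, 8.35 and 4.87 CPM in ipsilateral replicates 1 to 3, against 5.12 to 6.27 CPM on the contralateral side. Replicate 1 was highest and replicate 3 lowest for this sum, and so they were for Cxcl2, whereas Cxcl1 was lowest in replicate 2. That order was not particular to neutrophil markers. Summed monocyte and macrophage (29.8, 20.4 and 13.1 CPM), microglial and endothelial markers had it too, and excitatory neuron markers had the reverse order. At 12 h the summed level was 4.06, 5.3 and 10.4 CPM, highest in replicate 3, which also had the highest Cxcl1 and Cxcl2. Whether neutrophils had a part in these levels was not tested.

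Cxcl10 (chr5:92346638-92348889, minus strand), an interferon-inducible ligand, rose at 12 and 24 h. Its counts were 0, 0 and 4 in sham and from 0 to 6 in the contralateral libraries. Ipsilaterally they were 0, 11 and 11 at 3 h and 8, 14 and 24 at 6 h. They reached 18, 12 and 58 at 12 h and 160, 72 and 73 at 24 h. From 6 h on, all ipsilateral libraries lay above all contralateral libraries of the same time, and the ipsilateral group at 24 h overlapped with no other group.

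At 6 h the mean of Cxcl10 was 0.355 ± 0.156 CPM (SD, n = 3) ipsilaterally and 0.0779 ± 0.0505 contralaterally, a log2 fold change of 2.14 ± 0.88 that was not called (adjusted p = 0.145, edgeR). Against sham at 6 h the change was 3.29 ± 1.03 with an adjusted p of 0.0565, which became 0.0421, and a call, with the replicate number as a block. At 12 h it was 0.666 ± 0.585 against 0.108 ± 0.0604 CPM, a log2 fold change of 2.62 ± 0.83 (adjusted p = 0.0382). That call was lost when any of 5 of the 6 libraries was left out, the exception being ipsilateral replicate 2, with an adjusted p of up to 0.287 without ipsilateral replicate 3, where the log2 fold change was 1.62. Against sham at 12 h (4.18 ± 0.98, adjusted p = 0.00713) the call was lost without ipsilateral replicate 3 (adjusted p = 0.0646). At 24 h the level was 2.62 ± 1.56 against 0.0311 ± 0.0269 CPM (adjusted p = 7.15e-05), and pooled counts of 305 against 4 gave a ratio of 82.9 (exact 95% interval 32.1 to 306). At 3 h, where the contralateral group had 0 counts, the 22 ipsilateral counts of Cxcl10 stood 6.72-fold above a floor of 3 counts. This was not called (adjusted p = 0.211), and the sides overlapped, as ipsilateral replicate 1 also had 0 counts.

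Exons of Cxcl10 overlap those of Art3 on the opposite strand, and the strand setting of the counting is not given in the sources used here. Art3 had a mean of 1.53 CPM ipsilaterally and 1.95 CPM contralaterally at 24 h, with a log2 fold change of -0.34 ± 0.23 (adjusted p = 0.312). Art3 was called in none of the 14 comparisons. Markers of T cells and natural killer cells, the cells with Cxcr3, were summed over 7 genes. They reached 2.46 to 5.22 CPM ipsilaterally and 1.28 to 2.53 CPM contralaterally at 24 h, and 1.31 to 3.87 CPM in sham. Of the 2 tested, 1 (Lck) rose between the sides at 24 h, beside 19.1% of all genes called. Against sham 0 of 2 were called, beside 22.2%. Cxcr3 itself had at most 4 counts in any of the 27 libraries.

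**Figure D2:**
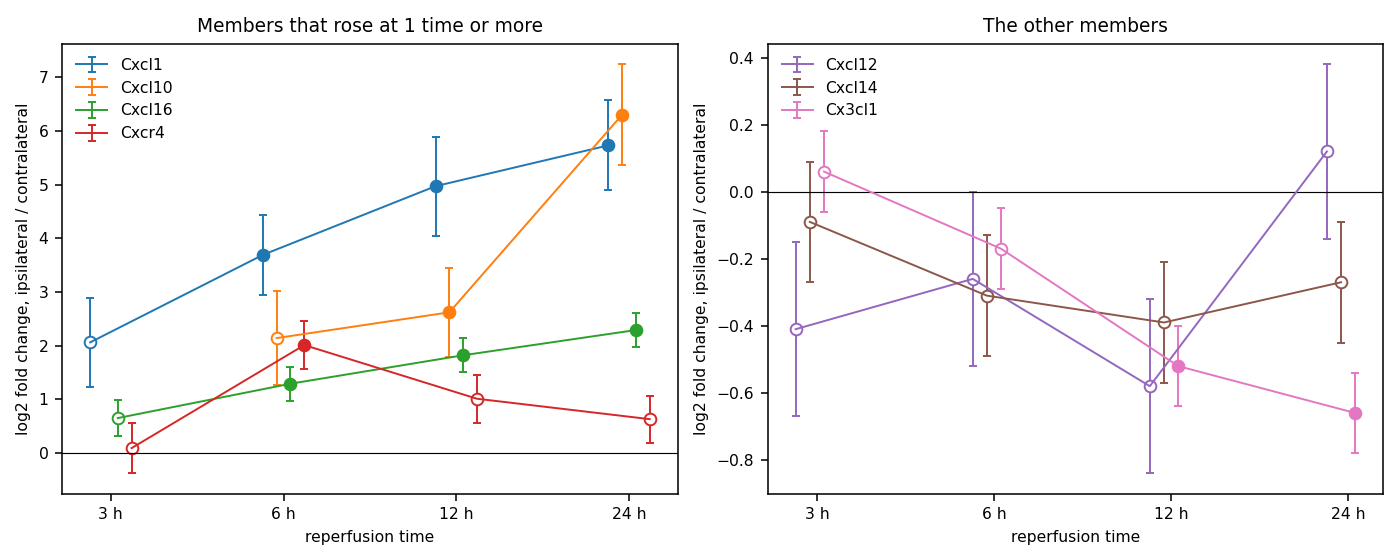
Log2 fold change between ipsilateral and contralateral cortex (y axis) at 3, 6, 12 and 24 h (x axis) for the members other than Cxcl2, whose contralateral counts were 0 at 12 and 24 h, and without Cxcl10 at 3 h for the same reason. Points are model estimates, bars are 1 SE and filled points had an adjusted p under 0.05. Cxcl1 runs from 2.06 at 3 h to 5.73 at 24 h and Cxcl16 from 0.65 to 2.29, Cxcr4 has its highest value of 2.01 at 6 h, and Cx3cl1 reaches -0.66 at 24 h.

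A list of 16 factors known to act on such promoters or to report their activity (NF-kappaB subunits and feedback genes, interferon regulatory factors, STAT factors and hypoxia-inducible factors) was followed in the same comparison. At 3 h 0 of 16 were called, beside 0.249% of all genes, with 7 at an unadjusted p under 0.05 and 2 called by DESeq2. At 6 h 7 rose and at 12 h 6 rose, beside 7.99% and 12.2% of all genes called. At 24 h 11 of 16 rose and 0 fell, beside 19.1%, with a list median of 0.67 on the log2 scale against 0.028 over all genes. The 3 with the smallest adjusted p at 24 h were Stat3, the factor downstream of interleukin 6 (log2 fold change 1.34 ± 0.14, adjusted p = 4.74e-07), Irf9, part of the interferon-activated complex (1.39 ± 0.2, adjusted p = 3.39e-05), and Nfkbiz, an inducible NF-kappaB cofactor (1.17 ± 0.18, adjusted p = 7.68e-05). Nfkbiz had its largest log2 fold change, 1.65 ± 0.18, at 6 h, whereas Stat3 was not among the genes called at 6 h and rose at 12 h (0.76 ± 0.14). Whether these factors act on the members was not tested.

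Cxcl16, a transmembrane ligand for Cxcr6 that also takes up oxidized lipoprotein (chr11:70453983-70459984, minus strand), rose at 6, 12 and 24 h. Its counts were 40, 35 and 31 in sham and from 10 to 50 contralaterally. Ipsilateral counts were 20, 60 and 36 at 3 h, 74, 64 and 69 at 6 h, 90, 68 and 153 at 12 h and 190, 195 and 161 at 24 h. At 3 h the sides overlapped. At 6, 12 and 24 h all ipsilateral libraries were above all contralateral libraries of their time, and also above all sham libraries.

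The mean level of Cxcl16 at 6 h was 1.64 ± 0.171 CPM (SD, n = 3) against 0.669 ± 0.129, a log2 fold change of 1.29 ± 0.32 (adjusted p = 0.0112, edgeR) that was lost without contralateral replicate 1 (adjusted p = 0.0688). Against sham at 6 h it was 0.9 ± 0.32 and not called (adjusted p = 0.0852). At 12 h the level was 2.34 ± 1.04 against 0.663 ± 0.129 CPM (1.82 ± 0.32, adjusted p = 0.000387). Against sham at 12 h the change was 1.42 ± 0.31 (adjusted p = 0.00389), and it was lost without ipsilateral replicate 3 (0.99, adjusted p = 0.0576). At 24 h it was 4.63 ± 1.22 against 0.944 ± 0.209 CPM (log2 fold change 2.29 ± 0.31, adjusted p = 1.85e-05). This was the smallest adjusted p of any member at 24 h. Between 3 and 24 h the effect grew by 1.63 ± 0.46 on the log2 scale (adjusted p = 0.0454). That difference lay close to the threshold and was lost under 19 of 33 alternatives, with an adjusted p of up to 0.115.

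Exons of Cxcl16 overlap those of Zmynd15 on the opposite strand. Zmynd15 had 62 counts over the 3 ipsilateral libraries at 24 h against 20 contralaterally, and its log2 fold change of 1.79 ± 0.7 was not called (adjusted p = 0.0718). Against sham it was called at 24 h (2.65 ± 0.77, adjusted p = 0.0138). Where Cxcl16 and Zmynd15 overlap, reads cannot be told apart without a strand setting. Of 7 tested monocyte and macrophage markers 2 rose at 24 h (Ccr2 and Lyve1), beside 19.1% of all genes called. Against sham 1 of 7 rose, beside 22.2%. The markers summed to 13.1 to 29.8 CPM ipsilaterally and 8.66 to 19.9 CPM contralaterally at 24 h, and to 12.2 to 21 CPM in sham, with overlap. Their part in the level of Cxcl16 was not tested. Cxcr6, the receptor of Cxcl16 on T cells, had 52, 28 and 33 ipsilateral and 16, 16 and 18 contralateral counts at 24 h. Its libraries did not overlap there, but its log2 fold change of 1.33 ± 0.51 was not called (adjusted p = 0.0657).

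Cxcr4, the receptor of Cxcl12 (chr1:128588199-128592293, minus strand), rose at 6 h and was called at no other time. Its counts were 30, 38 and 16 in sham and from 14 to 32 contralaterally. Ipsilateral counts were 8, 48 and 20 at 3 h, 70, 88 and 94 at 6 h, 54, 28 and 58 at 12 h and 66, 32 and 17 at 24 h. The 6 h group was first in the order of mean levels and did not overlap the next, ipsilateral cortex at 12 h. Ipsilateral libraries at 24 h ran from 0.34 to 1.81 CPM, so that replicate 1 lay within the 6 h range and replicate 3 below the contralateral range.

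At 6 h the level of Cxcr4 was 1.99 ± 0.301 CPM (SD, n = 3) against 0.492 ± 0.0768, a log2 fold change of 2.01 ± 0.45 (adjusted p = 0.00462, edgeR), and it was called with any 1 library left out (adjusted p of up to 0.0313). Against sham it was 1.55 ± 0.44 (adjusted p = 0.0308), a call that was lost with any 1 of the 6 libraries left out (0.0507 to 0.134). At 12 h the log2 fold change was 1.01 ± 0.45 (adjusted p = 0.147), although the libraries of the sides did not overlap. At 24 h it was 0.63 ± 0.44 (adjusted p = 0.347), and it turned to -0.11 without ipsilateral replicate 1. The test that the effect differs between the 4 times gave an adjusted p of 0.269, so a peak at 6 h was not shown by that test.

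Cxcl12 (chr6:117168535-117181367, plus strand), the ligand of Cxcr4 and a constitutive chemokine of vessels and meninges, was not called in any comparison. Its levels were 20.4, 24.8 and 34.9 CPM in sham and between 13.3 and 33.5 CPM in the contralateral libraries. Ipsilateral levels were 22.1, 18.2 and 20.3 CPM at 3 h, 16.5, 14.9 and 14 CPM at 6 h, 14.5, 18.7 and 14.8 CPM at 12 h and 28.9, 14.1 and 12.7 CPM at 24 h. All 9 groups overlapped with their neighbours in the order of means. The sides did not overlap at 3 h. Against contralateral cortex the log2 fold changes were -0.41 ± 0.26, -0.26 ± 0.26, -0.58 ± 0.26 and 0.12 ± 0.26 in order of time, with adjusted p between 0.16 and 0.799 (edgeR).

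Ipsilateral replicate 1 at 24 h held the highest Cxcl12 of its group by far. It also held the highest summed level of its group for every marker list but that of excitatory neurons. Endothelial markers summed to 296 CPM against 179 and 129, meningeal ones to 77.9 against 47.7 and 37.9, and astrocyte ones to 4987.1 against 3580.4 and 3665.2. Of 8 endothelial markers 4 rose and 1 fell at 24 h, beside 19.1% of all genes called. The part of these levels in the Cxcl12 value was not tested. Without replicate 1 the comparison with the contralateral side turned to -0.36 (adjusted p = 0.319), and the comparison with sham went from -0.52 ± 0.26 (adjusted p = 0.157) to -1 (adjusted p = 0.00436), a call. At 6 and 12 h against sham the values were -0.82 ± 0.26 and -0.74 ± 0.26 with adjusted p of 0.0682 and 0.0767, and DESeq2 called both (adjusted p = 0.0194 and 0.0332). Ackr3, which removes Cxcl12, had ipsilateral means of 5.93, 7.61, 5.41 and 5.54 CPM at 3, 6, 12 and 24 h. None of its 4 comparisons with the contralateral side was called, with adjusted p from 0.274 to 0.992.

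Cxcl14 (chr13:56288643-56296551, minus strand), a ligand of incompletely known receptor that marks some interneurons, was the second most abundant member. Sham levels were 51.9, 62.1 and 54.2 CPM, and contralateral levels ran from 35.4 CPM (replicate 1 at 3 h) to 72.2 CPM. Ipsilateral levels were 44.7, 55.6 and 53.5 CPM at 3 h, 51.2, 46.8 and 59.9 CPM at 6 h, 40.1, 52.6 and 52.4 CPM at 12 h and 58.9, 41.8 and 36.8 CPM at 24 h. The sides separated with no overlap at 12 h only.

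The log2 fold changes of Cxcl14 were -0.09 ± 0.18, -0.31 ± 0.18, -0.39 ± 0.18 and -0.27 ± 0.18 at 3, 6, 12 and 24 h, with adjusted p of 0.885, 0.32, 0.15 and 0.298 (edgeR). None passed the test. With both doubted libraries left out of the fit the values at 12 and 24 h were -0.39 and -0.5 with adjusted p of 0.0199 and 0.00867, which were calls. Of 10 interneuron markers 2 fell at 6 h, 3 at 12 h and 3 at 24 h, where 7.99%, 12.2% and 19.1% of all genes were called, and their summed level at 24 h was 673 to 925 CPM ipsilaterally and 906 to 951 CPM contralaterally. Their part in the Cxcl14 values was not tested.

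Cx3cl1 (chr8:94772009-94782427, plus strand) was the most abundant member and fell at 12 and 24 h. Its levels were 457, 460 and 522 CPM in sham and from 346 to 506 CPM contralaterally, the lowest being replicate 1 at 3 h. Ipsilateral levels were 436, 431 and 480 CPM at 3 h, 431, 407 and 431 CPM at 6 h, 304, 357 and 304 CPM at 12 h and 267, 280 and 256 CPM at 24 h. From 6 h on, all ipsilateral libraries were below all contralateral libraries of the same time, and the groups at 12 and 24 h overlapped with no neighbour in the order of means. Contralateral replicate 1 at 3 h, a doubted library, lay within the ipsilateral range at 12 h.

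At 3 h the ipsilateral mean of Cx3cl1 was 449 ± 26.9 CPM (SD, n = 3) and the contralateral one 431 ± 76.9, a log2 fold change of 0.06 ± 0.12 (adjusted p = 0.891, edgeR). At 6 h it was -0.17 ± 0.12 (adjusted p = 0.404). At 12 h the level was 322 ± 30.9 against 461 ± 53.6 CPM, and it fell by 0.52 ± 0.12 on the log2 scale (adjusted p = 0.00375). At 24 h it was 268 ± 12.5 against 421 ± 45.1 CPM, and it fell by 0.66 ± 0.12 (adjusted p = 0.000327). Against sham it fell by 0.84 ± 0.12 at 24 h (adjusted p = 1.9e-05). None of these 3 calls was lost in any of the alternatives run. Cx3cl1 was the 1 member for which the effect differed between the 4 times (adjusted p = 0.0476, against 1.34% of all genes called), a call lost under 19 of 33 alternatives. From 3 to 24 h the effect moved by -0.72 ± 0.16 (adjusted p = 0.0187), where Cx3cl1 and Cxcl16 were the 2 members called, against 3.32% of all genes. Without contralateral replicate 2 at 24 h the adjusted p for Cx3cl1 was 0.0523.

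Excitatory neuron markers also fell on the ipsilateral side. Of 8, 1 (Slc17a7) fell at 6 h, where Cx3cl1 was not called, 3 at 12 h and 5 at 24 h. Of all tested genes 7.99%, 12.2% and 19.1% were called at these times. At 24 h the neuron markers summed to 896 to 1116.6 CPM ipsilaterally and 1546.1 to 1626.1 CPM contralaterally, with 0 of 8 at 0 counts. Slc17a7, the vesicular glutamate transporter of these cells, had a log2 fold change of -0.39 at 6 h (adjusted p = 0.0295) and of -0.72 at 24 h (adjusted p = 8.57e-05), beside -0.66 for Cx3cl1. Their part in the Cx3cl1 result was not tested.

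Cx3cr1, the receptor of Cx3cl1 on microglia, was not called between the sides at any time. Its ipsilateral levels at 24 h were 31.6, 31.6 and 23.3 CPM and its contralateral levels 23.7, 30 and 8.94 CPM, so the sides overlapped. In order of time its log2 fold changes were -0.32 ± 0.28, 0.01 ± 0.28, 0.03 ± 0.27 and 0.46 ± 0.27, with adjusted p from 0.256 to 0.992 (edgeR). Among the 8 microglial markers 3 fell at 24 h, beside 19.1% of all genes called: Tmem119 (log2 fold change -0.99, adjusted p = 0.00405), the purinergic receptor P2ry12 (-1.06, adjusted p = 0.0151) and Siglech (-0.62, adjusted p = 0.0472). Their summed level was 104 to 174 CPM ipsilaterally and 104 to 173 CPM contralaterally at 24 h. At 12 h, where 2 of the 8 fell and 12.2% of all genes were called, it was 136 to 161 CPM against 174 to 219 CPM, with no overlap. Whether ligand and receptor differ in their change was not tested.

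**Figure D3:**
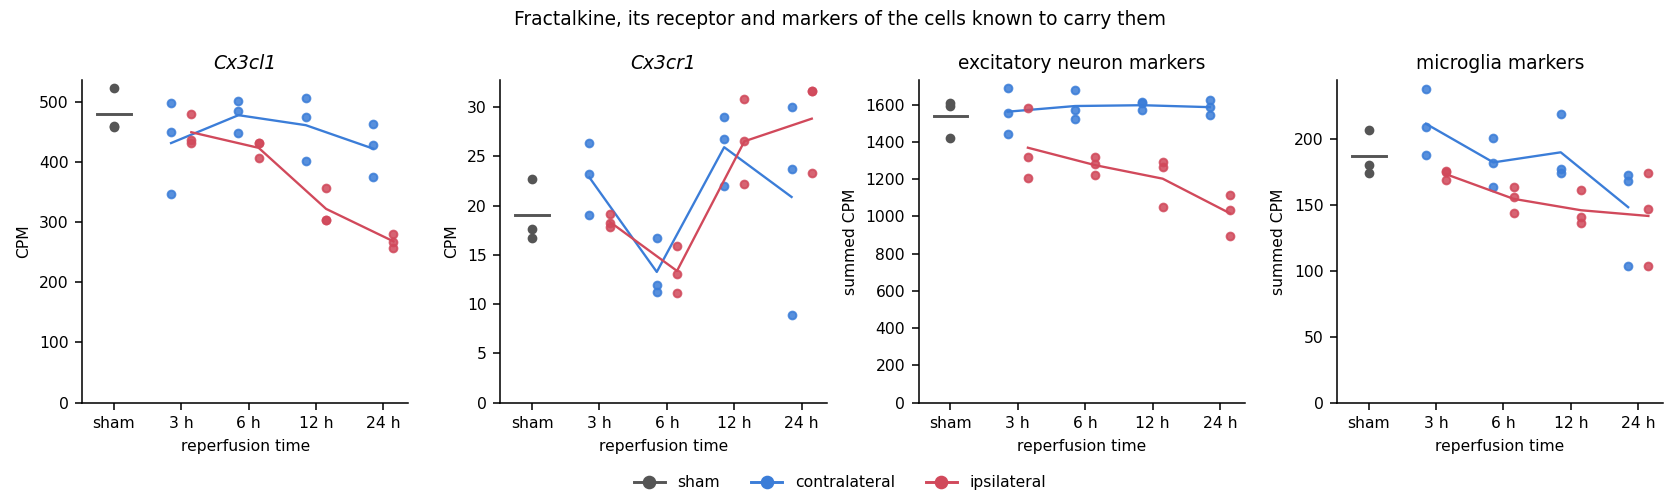
CPM of Cx3cl1 and Cx3cr1, and summed CPM of 8 excitatory cortical neuron markers and of 8 microglial markers (y axes, from 0), in sham, contralateral and ipsilateral cortex over reperfusion time (x axis). Points are libraries, lines join group means and the short bar is the sham mean. Ipsilateral Cx3cl1 goes down to 256 to 280 CPM and the neuronal markers to 896 to 1116.6 CPM at 24 h, while Cx3cr1 and the microglial markers overlap between the sides at that time.

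Of the other members of the family, 17 ligands and receptors were listed and 10 had enough counts for a test. At 24 h 2 of 4 tested ligands and 1 of 6 tested receptors rose, beside the 19.1% of all genes. Cxcl5, a neutrophil attractant, rose at 12 h (log2 fold change 2.12 ± 0.59, adjusted p = 0.0175) with counts of 40, 6 and 32 against 4, 9 and 2, and the sides overlapped. That call was lost under 5 of 14 alternatives, among them the replicate block within each time (adjusted p = 0.0643). At 24 h Cxcl5 had counts of 44, 29 and 20 against 14, 10 and 14 (1.47 ± 0.53, adjusted p = 0.0496), and 11 of 15 alternatives lost the call. Both replicate blocks were among these (adjusted p = 0.055 and 0.0986). Against sham at 24 h the change of Cxcl5 was 1.7 ± 0.54 (adjusted p = 0.0247), lost under 5 of 14 alternatives with an adjusted p of up to 0.138.

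Pf4, a platelet chemokine also made by some macrophages, rose at 24 h with counts of 78, 20 and 18 against 4, 4 and 6 (3.22 ± 0.69, adjusted p = 0.00161). Without ipsilateral replicate 1 the estimate was 2.07 (adjusted p = 0.0386). Contralateral counts there were below those of sham, 22, 10 and 8, and against sham the change was smaller and not called (1.62 ± 0.6, adjusted p = 0.0531, and 0.0488 with the replicate block). The pooled ratio of Pf4 was 2.88 over sham and 9.01 over the contralateral side. Cxcr5, a receptor of B cells, had counts of 16, 6 and 24 against 10, 2 and 0 at 24 h (2.01 ± 0.7, adjusted p = 0.0424), with overlap between the sides. Against sham, with 6, 7 and 11 counts, Cxcr5 was not called (0.85 ± 0.64, adjusted p = 0.361), and its pooled ratio was 1.9, against 4.17 over the contralateral side and 0.457 (exact 95% interval 0.208 to 0.95) for contralateral over sham. The Cxcr5 call was lost without ipsilateral replicate 1 or 3, without contralateral replicate 2 or 3, and with both doubted libraries left out, with an adjusted p of up to 0.151. At 3 h 0 of these 10 genes were called, beside 0.249% of all genes, with 1 (Ackr1) at an unadjusted p under 0.05 and 1 called by DESeq2.

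Of 12 genes that process chemokines or carry their signal, 2 rose at 12 h, beside 12.2% of all genes called, and 3 rose and 2 fell at 24 h, beside 19.1%. The 3 with the smallest adjusted p at 24 h were Cd74, the invariant chain and a receptor for Mif (log2 fold change 1.84 ± 0.33, adjusted p = 0.000363), Mif, a cytokine that also binds Cxcr4 (-0.54 ± 0.12, adjusted p = 0.00309), and Adam17, a protease that sheds Cx3cl1 and Cxcl16 (0.78 ± 0.18, adjusted p = 0.00339). At 3 and 6 h 0 of 12 were called, beside 0.249% and 7.99% of all genes. Without adjustment 4 and 3 had p under 0.05, and DESeq2 called 0 and 1.

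Compared per length (mean CPM divided by the length in kb of the longest coding transcript), the order of the members changed with the stroke. In sham cortex Cx3cl1 stood at 145 CPM per kb, Cxcl14 at 30.7 and Cxcl12 at 4.75, and Cxcr4, Cxcl16, Cxcl1 and Cxcl10 at 0.374, 0.324, 0.106 and 0.0287. In ipsilateral cortex at 24 h Cx3cl1 stood at 80.7, Cxcl14 at 25.1, Cxcl1 at 4.4, Cxcl12 at 3.3, Cxcl10 at 1.94, Cxcl16 at 1.71, Cxcl2 at 0.755 and Cxcr4 at 0.563 CPM per kb. Cxcl1 thus passed from below Cxcr4 to above Cxcl12 in mean CPM per kb, while the induced ligands all stayed below Cx3cl1 and Cxcl14. The place of Cxcl1 above Cxcl12 depends on the lengths used, 0.953 and 5.627 kb. In CPM not divided by length Cxcl1 stayed below Cxcl12 there (4.19 against 18.6).

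**Figure D4:**
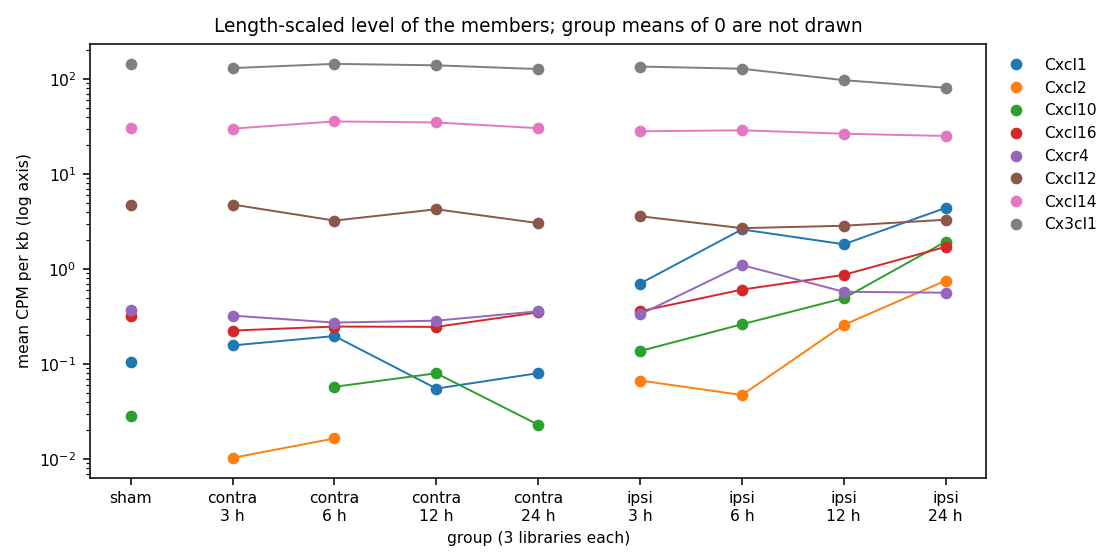
Mean CPM per kb of the longest coding transcript (y axis, log scale) for the 8 members in each of the 9 groups (x axis). Each point is a mean over 3 libraries, lines join the times of a hemisphere and means of 0 are not drawn. Cx3cl1 is at 145 in sham and 80.7 in ipsilateral cortex at 24 h, and Cxcl1 at 0.106 and 4.4.

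For each member called between the sides, the 3 genes of most similar course were those with the smallest root mean square (RMS) difference between centred group means of log2 CPM over the 9 groups, among 14162 genes with at least 1 CPM on average. For Cxcl1 the nearest were Hmox1 (0.62) and the lipopolysaccharide co-receptor Cd14 (0.66), where the RMS of Cxcl1 around its own mean was 1.87. For Cxcl2 they were Gp49a (0.35), Lilrb4 (0.44) and Cd72 (0.48), with Gp49a and Lilrb4 close relatives whose reads may be shared. For Cxcl10 they were the protease inhibitor A2m (0.42), the galectin Lgals3 (0.46) and Lilrb4 (0.52). Cxcl16 was closest to the intermediate filament gene Vim (0.23), the lipid droplet gene Plin2 (0.24) and the tumour necrosis factor receptor Tnfrsf1a (0.25). Cx3cl1 was closest to Jph4 (0.04), B4galt2 (0.04) and Flot2 (0.05), and Cxcr4 to Plk3 (0.23), Tspan18 (0.24) and Ccdc86 (0.26). The RMS around the own mean was 1.38 for Cxcl2, 1.67 for Cxcl10, 0.89 for Cxcl16, 0.27 for Cx3cl1 and 0.58 for Cxcr4. A difference is to be read against that value, so differences do not compare directly between members.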

How the data were processed

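Cortical total RNA was depleted of ribosomal RNA and made into TruSeq libraries, per the labels' protocols. The values are raw counts per gene as deposited. The submitters' processing notes name STAR 2.5.0a, featureCounts 1.4.3-p1, edgeR and the build mm10, and the sources used here give no annotation or strand setting. From the counts of 27 libraries (totals 26505996 to 48830897), edgeR 4.0.16 (R 4.3.3) fitted a quasi-likelihood model with TMM, robust dispersions and 1 mean per group. The filter filterByExpr (minimum count 10, minimum total 15) kept 18087 of 22340 genes. Over these the P-values were adjusted by Benjamini-Hochberg, and 0.05 was the threshold. The common coefficient of biological variation, 1 value for all tested genes, was 0.175, and there were 18 residual degrees of freedom. Single genes could vary more, as Cxcl1 did in ipsilateral cortex at 12 h (mean 1.74 and SD 2 CPM). SE were derived from the test statistic. Centred log2 means used a prior count of 2. The fit was tested on simulated data drawn from these libraries. Genes changed there lay above a minimum mean count that Cxcl2 and Cxcl10 do not reach, so counts as low as theirs were not covered.

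The members, gene lists and tests were chosen with earlier results of these data known. Genes named were the 8 members, Cx3cr1, Ackr3, Cxcr2, each listed family gene called between the sides, the 3 genes of the other lists with the smallest adjusted p at 24 h, and the 3 genes most alike to each called member. For Cxcl1, 1 of these is not reported here. Named after their values were seen were marker genes, the overlapping genes Art3 and Zmynd15, Cxcl3, Cxcr3, Cxcr6 and Ackr1. Gene positions, lengths and overlaps are from the GENCODE annotation of mm10 and promoters from RefSeq. The markers Ly6g, Elane and Nkg7 were not analysed here.

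Replicate numbers mark days of surgery, per the series' design text, and so pair the libraries. As a check, deviations from the group means were correlated between libraries of different groups. The mean was 0.0475 for the 108 pairs that share a number (31 were above 0.1) and -0.0237 for the other 216 pairs (15 were above 0.1). The alternatives were the size factors of DESeq2, no filter, a filter of 1 CPM in 3 libraries, the omission of 23 abundant RNAs, a fit of the compared groups alone, DESeq2 1.42.0, the replicate number as a block, over all times or within each, and the omission of single libraries or of both doubted ones. Halved counts were added as an alternative after the data were seen.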

Additional observations from a re-analysis of the deposited data

Results flagged for a closer look

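The difference between ipsilateral and contralateral cortex was called as changed from 3 to 24 h for 2 members, beside 3.32% of all genes. The test was edgeR's test of the difference with Benjamini-Hochberg adjustment. For Cx3cl1 the log2 fold change at 24 h minus that at 3 h was -0.72 (adjusted p = 0.0187). Without contralateral replicate 2 at 24 h that call was lost (adjusted p = 0.0523). For Cxcl16 the difference was 1.63 (adjusted p = 0.0454), lost under 19 of 33 alternatives with an adjusted p of up to 0.115.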

How the results depend on the processing

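Members called between ipsilateral and contralateral cortex numbered 0, 3, 4 and 5 at 3, 6, 12 and 24 h. DESeq2 gave 1 at 3 h, and both doubted libraries left out gave 5 at 12 h and 6 at 24 h. Leaving out 1 library gave 2 to 3 at 6 h, 3 to 5 at 12 h and 5 at 24 h. Against sham the counts of 0, 2, 4 and 5 changed as follows. With only the compared groups there was 1 at 3 h and 4 at 6 h. At 6 h there were also 4 with DESeq2 and 4 with both doubted libraries left out. At 12 h there were 5 with DESeq2 and 5 without the doubted libraries, and at 24 h 7 without the doubted libraries. Leaving out 1 library gave 1 to 2 at 6 h, 2 to 5 at 12 h and 5 to 6 at 24 h. The count for the effect that differs between times was 1, and 0 with only the compared groups, 2 with DESeq2 and 0 to 1 with 1 library left out. For the effect at 24 h minus 3 h it was 2, and 1 with no filter, 1 with both doubted libraries left out, 1 with only the compared groups and 0 to 3 with 1 library left out. The cause was not tested. With a replicate block 3 members were called against sham at 6 h in place of 2, Cxcl10 being added, and with a block within each time 5 in place of 4 between the sides at 12 h, Cxcl2 being added. The pairing changed no other call of a member. Over 2989 values of named genes under alternatives, 2870 kept their direction or lack of a call, 79 lost a call, 40 gained one and 0 called values changed sign. The 2989 include values that were not called and so could not lose a call. Setting the 79 against all 2989 therefore understates how often calls were lost, and 66 of the 79 were lost with 1 library left out. Among values that were not called, 86 changed sign. Depth limits Cxcl1, Cxcl2 and Cxcl10, whose contralateral counts were between 0 and 12 in a library.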
